A study of Mus musculus with 8 samples.

Results

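The AP-1 transcription factors measured here were Fos, Fosb, Fosl1, Fosl2, Jun, Junb, Jund, Atf3, Maff and Batf3, taken by gene symbol from the gene table of each of 8 RNA-seq libraries. They were 10 of 40840 genes in the table, and all 10 were among the 19963 genes with enough counts to be tested. The libraries came from primary myofibroblastic hepatic stellate cells of mice (pMF-HSCs). These liver cells store vitamin A at rest and turn by themselves into collagen-secreting myofibroblasts on culture plastic. The cells came from wild-type male C57BL/6J mice aged 15 to 18 weeks, were sorted by the autofluorescence of retinol and were cultured for 7 days in DMEM with 5% serum. The control group received the vehicle DMSO for 24 h (n = 4, spelled DSMO in the label of replicate 4). The OGTi group received 50 µM of the compound OSMI-1 over the same 24 h (n = 4). The compound blocks OGT, or O-GlcNAc transferase, which attaches the sugar O-GlcNAc to nuclear and cytoplasmic proteins. No cell had its Ogt gene altered, each group rests on a single compound at a single dose and time, and whether animals were pooled is not given in the sources used here.

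AP-1 is a family of transcription factors that bind DNA as pairs joined through a leucine zipper. FOS-type proteins pair with JUN-type proteins, and relatives such as ATF3, the small MAF proteins and the BATF proteins join or replace them, which changes the DNA sequence that is bound. Many of the genes are immediate early genes, which growth factors, stress and adhesion switch on within minutes through MAP kinases, and in stellate cells AP-1 is known as part of the activation program. Because RNA was taken from whole cultures, fewer cells that express a gene and less of its RNA per cell cannot be told apart.

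The libraries held 30068876 to 37372420 expected counts, which are the read counts that RSEM estimates per gene. The library of OGTi replicate 4 had 23746 genes with a count, the highest number, and that of control replicate 1 had 19035, the lowest. In control replicate 4, 440 of 11832 well-expressed genes (3.72%) lay at least 4-fold below the mean of the other 3 control libraries, and 1 of them was an AP-1 member, Jun. Such genes had a GC content of 70% over the first 300 transcript bases at the median, against 62.7% for the well-expressed genes, and they made up 8.24% of the genes in the class of highest GC against 1.31% in the lowest. Stellate markers were abundant in every library, where the summed level of 8 markers such as Col1a1, Acta2, Pdgfrb and Des was 2164 to 3918 TPM in control and 1963 to 3085 TPM in OGTi (TPM, a level that takes account of both transcript length and depth). The macrophage and leukocyte list summed to 49.8 to 169 TPM in control and 87.5 to 226 TPM in OGTi, the cholangiocyte list to 86.8 to 139 TPM and 46.7 to 78.7 TPM, the endothelial list to 0.980 to 2.56 TPM and 0.260 to 0.810 TPM, and the hepatocyte list to 0.030 to 0.560 TPM and 0.660 to 2.09 TPM. Of these markers, Cd68 and Cyp2e1 were called higher, Pdgfrb, Lrat, Tek and Krt19 were called lower, and Hnf4a, which defines hepatocytes, was at 0 in all 8 libraries. The part of other cell types in the changes below was not tested.

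After OGTi, 5 of the 10 AP-1 genes were higher and none was called lower. Atf3 rose most, at 8.35-fold, followed by Fos at 3.18-fold, Maff at 2.21-fold, Fosl1 at 2.17-fold and Junb at 1.71-fold. Fosb, Fosl2, Jun, Jund and Batf3 did not pass the test, which was edgeR's quasi-likelihood test blocked by replicate number, with Benjamini-Hochberg adjustment over all 19963 genes and a threshold of 0.05. By the same rule, 18.4% of all genes tested were called, with 8.13% higher and 10.2% lower in OGTi, or 1623 and 2043 genes. That balance moved with the scaling, to 1256 higher and 2911 lower with library totals alone and 2051 and 1732 with upper-quartile scaling. At an unadjusted p of at most 0.05, 7 members were higher, as were 14.3% of all genes, and 0 were lower. DESeq2 called 7 higher after adjustment, where 11.8% of all genes were, and 0 lower. By limma on log2(TPM + 1), 3 members were higher, where 5.99% of all genes were, and 1 was lower, Batf3, where 17.3% were. The median log2 fold change was 1.07 over the 10 members and 0.01 over all genes tested, and the members' median was 0.66 without replicate 4. Of the 10 members, 7 were higher in OGTi in all 4 pairs of cultures by counts scaled for library size, as were 19.4% of all genes, and 5 were by TPM. In 3 members, Fos, Atf3 and Maff, every OGTi library lay above every control library on the scaled counts, which 11.5% of all genes did. By TPM this held for 2 members, Fos and Atf3. The shares of all genes that meet these 2 criteria by TPM were not computed. Ogt itself, whose protein is the target of the compound, had a log2 fold change of -0.16 ± 0.24 (SE, adjusted p = 0.714).

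The promoters of the 4 members that follow are printed because 3 of them belong to the genes that rose clear of the control range and the fourth, Jun, is the member whose control libraries differ most. Each line gives the 200 bases before a transcription start, 5′ to 3′ on the strand of the gene, from the RefSeq promoter table (build GRCm38.p6), and an exact match placed each in GRCm39. Fos lies at chr12:85520464-85520663 on the plus strand, Jun at chr4:94940460-94940659 on the minus strand, Atf3 at chr1:190915531-190915730 on the minus strand and the second listed start of Maff at chr15:79231520-79231719 on the plus strand. The windows of Atf3 and Maff lie within the gene as annotated by GENCODE, since longer transcripts begin further upstream. Capitals mark the letters of the motifs searched.
Fos: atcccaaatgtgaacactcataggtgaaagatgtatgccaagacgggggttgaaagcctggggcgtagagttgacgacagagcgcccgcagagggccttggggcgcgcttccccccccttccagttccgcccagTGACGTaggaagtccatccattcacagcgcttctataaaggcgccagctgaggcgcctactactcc
Jun: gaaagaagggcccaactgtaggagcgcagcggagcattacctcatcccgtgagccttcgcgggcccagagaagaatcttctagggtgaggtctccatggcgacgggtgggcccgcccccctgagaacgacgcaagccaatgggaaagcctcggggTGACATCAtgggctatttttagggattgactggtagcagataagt
Atf3: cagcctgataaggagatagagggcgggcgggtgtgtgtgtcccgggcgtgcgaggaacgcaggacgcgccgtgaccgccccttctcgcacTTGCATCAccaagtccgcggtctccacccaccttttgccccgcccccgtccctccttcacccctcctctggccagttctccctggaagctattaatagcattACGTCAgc
Maff: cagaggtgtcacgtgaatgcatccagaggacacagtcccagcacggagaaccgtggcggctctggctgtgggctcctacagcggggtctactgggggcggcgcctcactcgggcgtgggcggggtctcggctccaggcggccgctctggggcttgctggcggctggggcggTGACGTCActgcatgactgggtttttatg

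The motifs were searched on both strands in windows of 300 bases, 250 before and 50 after each start, in the 9 of 10 members that the table holds. Fosl1 is not in it. The motif TGACNTCA, the cyclic AMP response element that JUN-ATF pairs are known to bind, stood in 2 members. It read TGACATCA in Jun, beginning 45 bases before the start, and TGACGTCA in Maff, 29 bases before the second start. TGACATCA also stood 45 bases before the third start of Maff. The shorter TGACGT, which lies inside TGACGTCA, stood in 3 members, 66 bases before the start of Fos, 8 bases before that of Atf3 as ACGTCA (its minus-strand form), and at the Maff site already named. TGATGCAA, an element shared by C/EBP and ATF proteins, stood in 1 member, Atf3, 110 bases before the start in its minus-strand form TTGCATCA. None of the 9 members held TGANTCA, the classical AP-1 site, or a CArG box, the site of serum response factor, in these windows. Of 32851 promoters in the table, 8.83% held TGACNTCA, 7.51% held TGACGT, 0.895% held TGATGCAA, 7.81% held TGANTCA and 1.63% held a CArG box. These matches describe letters in a window and show no binding.

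**Figure D1:**
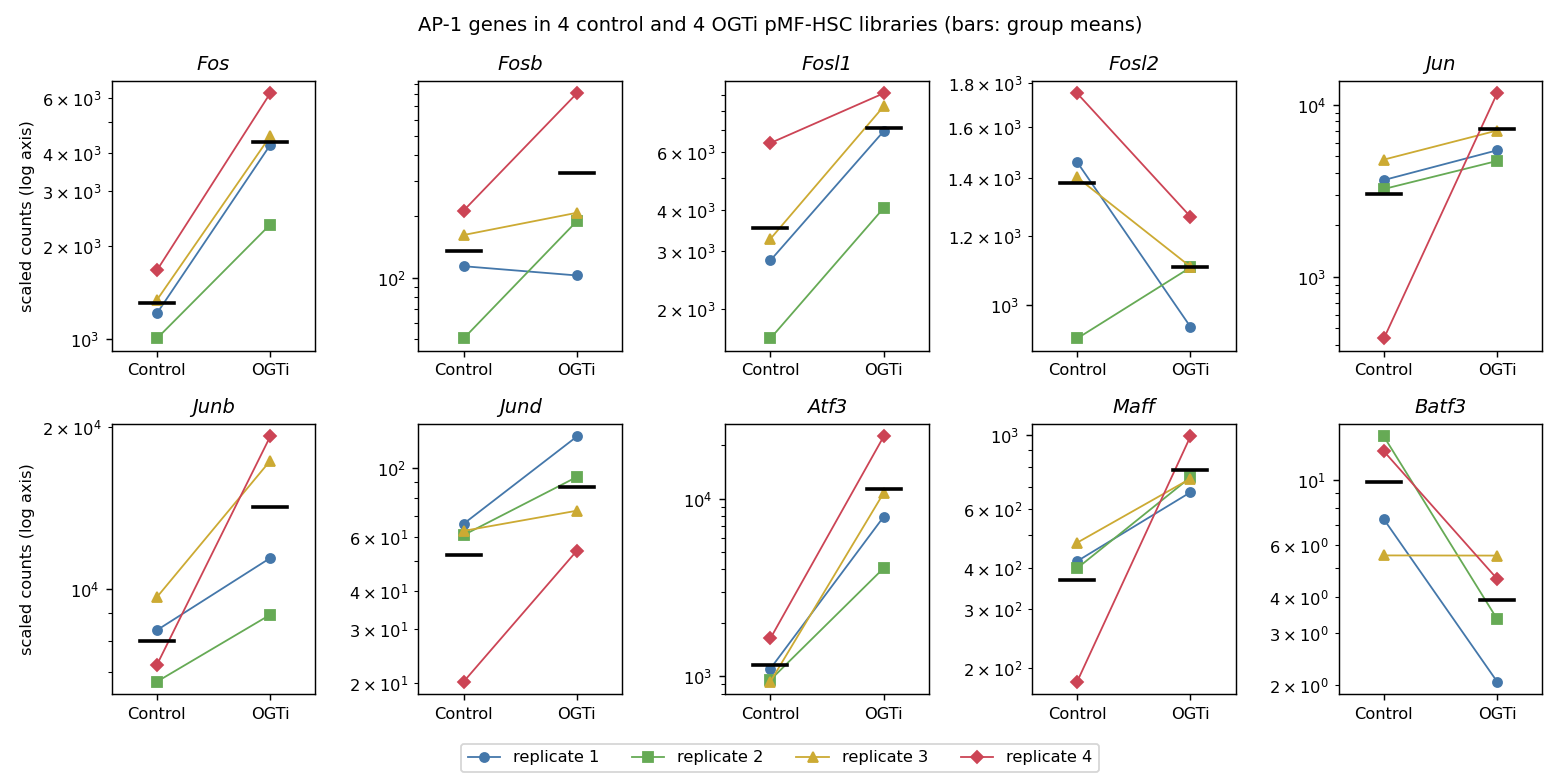
Scaled counts (log axis, a separate scale in each panel) of the 10 AP-1 genes in control and OGTi libraries, with lines joining cultures of the same replicate number and black bars at the group means. Atf3, Fos and Maff lie higher in OGTi with no overlap between groups, and Batf3 lies lower with groups that meet at 5.52. The line of replicate 4 is the steepest for Jun, which was 437 in that control library and 3235 to 4796 in the other 3.

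Among the FOS-type genes, Fos and Fosl1 rose, whereas Fosb and Fosl2 did not pass the test. Values are scaled counts, that is counts per library size after TMM adjustment, brought back to the mean size. Fos, the immediate early gene whose product is the prototype partner of JUN, lies at chr12:85520658-85524047 in GRCm39. It had 1213, 1006, 1339 and 1669 scaled counts in control replicates 1 to 4 and 4229.6, 2344, 4514 and 6211 in OGTi. The lowest OGTi culture lay above the highest control culture. Fos thus had a log2 fold change of 1.67 ± 0.21 (SE, 95% interval 1.20 to 2.14, adjusted p = 0.000876), and the differences within pairs 1 to 4 were 1.80, 1.22, 1.75 and 1.89. Leaving out each replicate in turn gave 1.60 to 1.84 for Fos, with every adjusted p at most 0.00774.

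Fosl1 encodes FRA-1, a FOS-type protein that lacks the transactivation domain of FOS and found in growing and migrating cells. It lies at chr19:5497575-5505974. Its scaled counts were 2809.6, 1625, 3268 and 6403 in control and 6956, 4057, 8283 and 9078 in OGTi. The groups overlapped, because control replicate 4 was higher than OGTi replicate 2, yet OGTi was the higher culture of each pair. For Fosl1 the log2 fold change was 1.12 ± 0.22 (SE, 95% interval 0.64 to 1.60, adjusted p = 0.00623), with 1.31, 1.32 and 1.34 in pairs 1 to 3 and 0.50 in pair 4. The call rests on the pairing, since without the replicate block the value was 1.01 and the adjusted p was 0.104. On the opposite strand Fosl1 overlaps Ccdc85b, and reads were counted by strand.

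Fosl2, which encodes FRA-2, a FOS-type protein linked to matrix production in fibroblasts, went the other way in 3 of 4 pairs without passing the test. It had 1459, 915, 1401 and 1751 scaled counts in control and 944, 1104, 1107 and 1264 in OGTi. The groups overlapped. Its log2 fold change was -0.29 ± 0.23 (SE, 95% interval -0.80 to 0.21, adjusted p = 0.422), and the interval lies wholly below those of Fos and Fosl1. Fosb, an immediate early gene closely related to Fos, had 114, 50.1, 162 and 214 scaled counts in control and 102, 189.8, 209 and 809 in OGTi. Replicate 4 of OGTi stood far above the other OGTi cultures, and pair 1 moved slightly down. The log2 fold change of Fosb was 1.02 ± 0.39 (SE, 95% interval 0.16 to 1.88, adjusted p = 0.0990), with 0.70 without replicate 4 (adjusted p = 0.351) and 1.40 without replicate 1 (adjusted p = 0.0396).

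Among the JUN-type genes, which can pair with themselves as well as with FOS-type proteins, only Junb was called, and in scaled counts each of the 3 was higher in OGTi in all 4 pairs. In TPM, Junb and Jund were higher in 3 of 4 pairs. Junb encodes a JUN protein of weaker transactivation that can restrain JUN. It lies at chr8:85701113-85705359. Its scaled counts were 8377, 6720.3, 9650.1 and 7222 in control and 11406, 8949, 17300.5 and 19192 in OGTi. OGTi replicate 2 lay inside the control range. Junb had a log2 fold change of 0.78 ± 0.22 (SE, 95% interval 0.29 to 1.26, adjusted p = 0.0332), with 0.45, 0.41, 0.84 and 1.41 in pairs 1 to 4. This call was lost without replicate 3 (0.75, adjusted p = 0.125), without replicate 4 (0.58, adjusted p = 0.124) and without the replicate block (0.83, adjusted p = 0.0526).

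Jun, the founding member of the family and an intronless gene at chr4:94937271-94940459, had 3647, 3235, 4796 and 437 scaled counts in control and 5433, 4710.3, 7079 and 11652 in OGTi. Control replicate 4 was 8.89-fold below the mean of the other 3 control libraries, while its OGTi partner was the highest of all 8. Pairs 1 to 3 differed by 0.57, 0.54 and 0.56 on the log2 scale, and pair 4 by 4.73. With all pairs the log2 fold change of Jun was 1.37 ± 0.63 (SE, 95% interval -0.02 to 2.76, adjusted p = 0.163). Without replicate 4 it was 0.57 ± 0.21 (SE, 95% interval 0.09 to 1.05, adjusted p = 0.122). The pairs that are alike thus gave a much smaller value with a narrower interval, and neither estimate passed the test.

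Jund, the JUN-type gene known for steady expression in resting cells, was low, with 66.0, 60.7, 62.6 and 20.2 scaled counts in control and 127, 93.8, 72.8 and 54.0 in OGTi. Control replicate 4 was again the lowest library, 3.07-fold below the mean of the other 3, and OGTi replicate 4 was the lowest of its group. For Jund the log2 fold change was 0.78 ± 0.33 (SE, 95% interval 0.05 to 1.52, adjusted p = 0.134). The first 300 bases of the GENCODE transcript of Jund had a GC content of 76.3%, the highest of the 10 members. That transcript has 1667 bases, whereas the Jund values used a length of 2877 bases. The GC content may thus not be that of the transcript counted. It was 60.7% for Jun and 63.7% for Maff, the other members that were lowest in control replicate 4. Fos (62.3%), Fosb (46.0%), Fosl1 (65.3%), Fosl2 (71.3%) and Atf3 (65.0%) were highest in that library among the controls. With the trend of GC content removed in an alternative fit chosen after seeing the data, the log2 fold change was 1.50 for Jun, 0.78 for Jund and 1.28 for Maff.

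**Figure D2:**
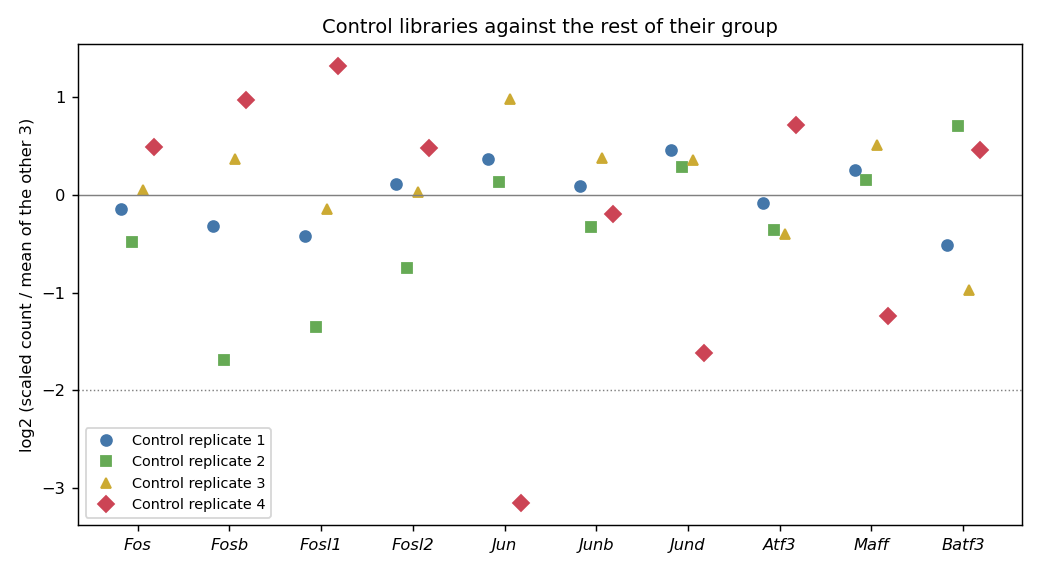
Each control library against the mean of the other 3 control libraries, as log2 of the ratio of scaled counts, for the 10 AP-1 genes, with a dotted line at 4-fold below. Control replicate 4 lies below that line for Jun alone, at -3.15, and reaches -1.62 for Jund and -1.24 for Maff, whereas it lies above the other controls for Fos, Fosb, Fosl1, Fosl2 and Atf3.

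The largest change in the family was that of Atf3, which encodes a stress-induced protein that pairs with JUN-type proteins and often represses its targets. Atf3 lies at chr1:190902493-190950241. It had 1105, 955, 934 and 1635 scaled counts in control and 7907, 4064, 10766 and 22373 in OGTi. Every OGTi culture was above every control culture, and OGTi replicate 4 was the highest. For Atf3 the log2 fold change was 3.06 ± 0.30 (SE, 95% interval 2.40 to 3.73, adjusted p = 0.000294), with 2.84, 2.09, 3.52 and 3.77 in pairs 1 to 4. Its interval lies wholly above that of Fos, the member of the next largest called change. Without replicate 4, Atf3 still rose by 2.83 (adjusted p = 0.00323).

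Maff encodes a small MAF protein, which has no transactivation domain and pairs with FOS-type and NRF2-type proteins. It lies at chr15:79230821-79243276. It had 418, 398, 475 and 182 scaled counts in control and 673, 746, 739 and 989 in OGTi. The groups did not overlap in scaled counts, whereas in TPM OGTi replicate 1 (12.4) lay below control replicate 3 (13.1). The log2 fold change of Maff was 1.15 ± 0.32 (SE, 95% interval 0.43 to 1.86, adjusted p = 0.0332), with 0.68, 0.90 and 0.64 in pairs 1 to 3 and 2.43 in pair 4. Without replicate 4 it was 0.75 (95% interval 0.17 to 1.34, adjusted p = 0.0994), a fit that leaves out the lowest control library and the highest OGTi library together. The call was also lost without replicate 2 (adjusted p = 0.0708) and without replicate 3 (adjusted p = 0.0557).

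Batf3, which encodes a JUN partner best known from dendritic cells, stood at the limit of detection, with 7.34, 14.1, 5.52 and 12.5 scaled counts in control and 2.05, 3.35, 5.52 and 4.59 in OGTi. OGTi was lower in pairs 1, 2 and 4 and equal within rounding in pair 3. In TPM Batf3 was 0.58 to 1.41 in control and 0.14 to 0.44 in OGTi, so that every OGTi library lay below every control library. The share of all genes that separated downward was not computed. The log2 fold change of Batf3 was -1.30 ± 0.84 (SE, 95% interval -3.16 to 0.56, adjusted p = 0.322), and both a fall and a small rise lie within that interval. Without replicate 4, the count of called members was 3, namely Fos, Fosl1 and Atf3, where 10.4% of all genes were called and 4.77% were called higher. In those 3 pairs, 5 members had every OGTi library above every control library in scaled counts, as did 15.7% of all genes. In TPM 3 members did, and the share of all genes in TPM was not computed.

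**Figure D3:**
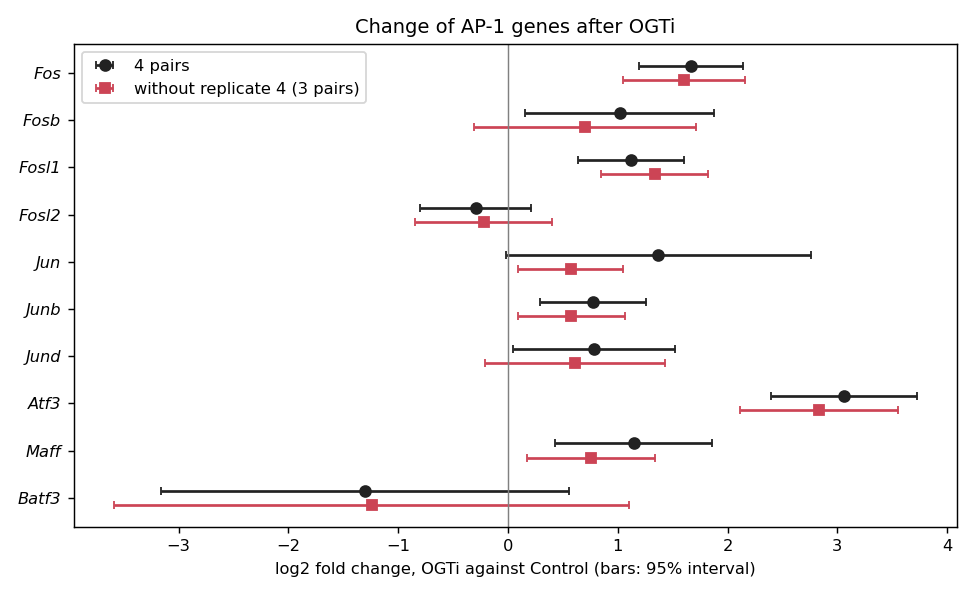
Log2 fold change of each AP-1 gene in OGTi against control with its 95% interval from edgeR, for 4 pairs of cultures (black) and for the 3 pairs left without replicate 4 (red). Atf3 has the highest value, 3.06 and 2.83 in the 2 fits, while Jun moves from 1.37 to 0.57 and the intervals of Fosl2 and Batf3 span 0 in both.

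Levels can be compared between genes only per length, for which TPM was used. In control, Junb led with 243 ± 42.8 TPM (SD, n = 4), followed by Fosl1 with 117 ± 68.3 TPM, Jun with 50.0 ± 31.0 TPM, Fos with 34.0 ± 7.53 TPM and Atf3 with 32.3 ± 9.23 TPM. The ranges of neighbours in this order overlapped. Within each control library, however, Junb was above Fosl1 and Fosl1 above Jun, whereas Jun was above Fos in 3 of 4 libraries and Fos above Atf3 in 2 of 4. Fosl2 (11.0 ± 2.84 TPM) and Maff (9.94 ± 3.48 TPM) came next, below every library of Fos and Atf3. Fosb (1.90 ± 0.997 TPM), Batf3 (1.00 ± 0.407 TPM) and Jund (0.963 ± 0.397 TPM) came last, and their ranges overlapped as well. In OGTi, Junb was again first at 344 ± 119.8 TPM and Atf3 moved from place 5 to place 2 at 251 ± 182 TPM, followed by Fosl1 at 186 ± 55.6 TPM, Jun at 95.5 ± 43.3 TPM and Fos at 88.8 ± 32.5 TPM. Neighbours among these 5 overlapped in range, and of the neighbouring places among these 5 only Fosl1 above Jun held in all 4 OGTi libraries. Maff (17.1 ± 4.03 TPM) and Fosl2 (7.09 ± 1.43 TPM) no longer overlapped, and Fosb (3.76 ± 3.75 TPM), Jund (1.26 ± 0.392 TPM) and Batf3 (0.318 ± 0.130 TPM) followed.

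The summed level of the 10 genes was 489, 379.8, 582 and 553 TPM in control and 700.1, 634, 1079 and 1563 TPM in OGTi. The lowest OGTi library was above the highest control library in this sum, which includes Atf3. The FOS-type sums alone overlapped, with 274 TPM in control replicate 4 and 189 TPM in OGTi replicate 2. So did the JUN-type sums, with 381 TPM in control replicate 3 and 299 TPM in OGTi replicate 1. The FOS-type genes summed to 164 ± 79.2 TPM in control and 285 ± 90.6 TPM in OGTi (SD, n = 4, higher in 4 of 4 pairs), and the JUN-type genes to 294 ± 67.9 TPM and 440.5 ± 159 TPM (higher in 3 of 4 pairs). The make-up of the family shifted toward Atf3, whose share of the summed TPM was 6.51% ± 1.54 in control and 23.2% ± 6.85 in OGTi and was higher in 4 of 4 pairs. The share of Junb was 48.8% ± 6.10 in control and 35.4% ± 4.13 in OGTi, lower in all 4 pairs. Within the FOS-type genes, Fosl1 held the largest share in both groups (68.9% ± 6.86 and 65.3% ± 2.43), and Fosl2 took 7.24% ± 1.53 in control and 2.67% ± 1.05 in OGTi, lower in all 4 pairs. Within the JUN-type genes, Junb held 83.6% ± 8.72 and 78.3% ± 2.77, and its highest share, 96.7%, was in control replicate 4, where Jun was low. These shares are descriptions of RNA and were not tested, and the amounts of the proteins were not measured.

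**Figure D4:**
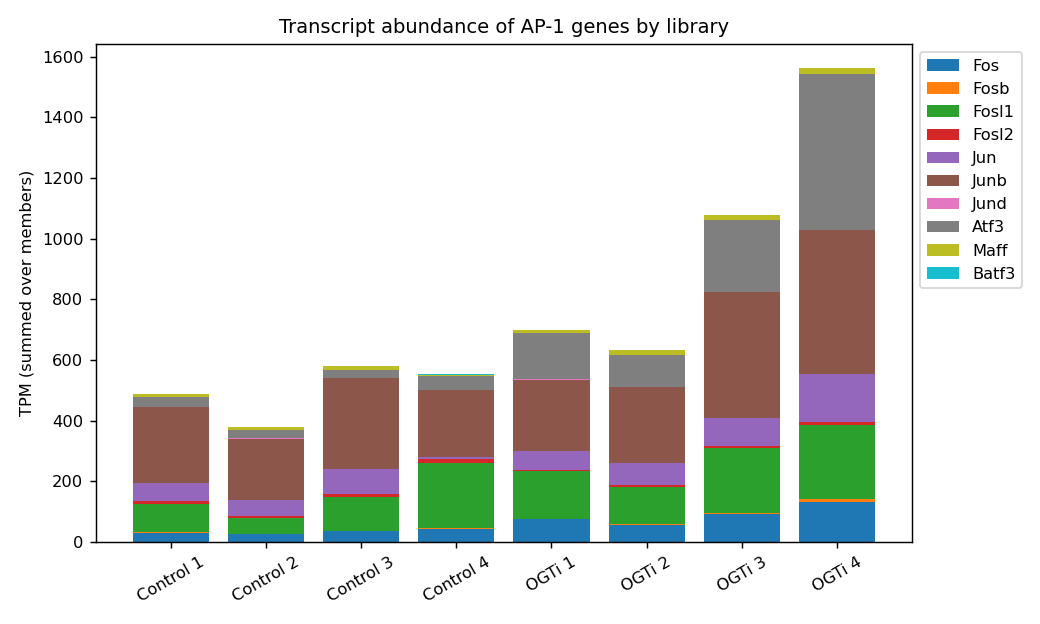
Transcript abundance (TPM) of the 10 AP-1 genes, stacked for each of the 8 libraries, where the height of a bar is their summed level. The control bars reach 379.8 to 582 TPM and the OGTi bars 634 to 1563 TPM, and the grey segment of Atf3 widens from 6.51% of a bar on average in control to 23.2% in OGTi.

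The other genes of the pathway were taken from lists written out from general knowledge of AP-1. Among 22 further leucine zipper partners, 6 rose, none fell and 16 did not pass the test (27.3% called, beside 18.4% of all genes), with a median log2 fold change of 0.58, or 0.32 without replicate 4. Ddit3, which encodes the stress factor CHOP, rose most, from 6358 ± 1683 to 32060.1 ± 12206 (SD of the scaled counts, n = 4), or by 2.27 ± 0.30 on the log2 scale (SE, adjusted p = 0.00109). Bach1, a repressor that pairs with small MAF proteins, rose by 1.12 (adjusted p = 0.0240), Atf4, the effector of the integrated stress response, by 1.11 (adjusted p = 0.00339), and the small MAF gene Mafk by 0.90 (adjusted p = 0.0314). Mafg and Creb1, named here to complete the count, were the other genes called in this list. At an unadjusted p of at most 0.05 1 gene of the list was lower, Maf, which was chosen for mention after its values were seen, and 9 were higher. DESeq2 called 9 of the list higher and 0 lower, where 2365 and 2468 of all 19963 genes were. By limma on log2(TPM + 1), 2 were higher and 1 lower, where 5.99% and 17.3% of all genes were. Without replicate 4, 3 of the 22 were called, namely Mafg, Atf4 and Ddit3.

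Among 28 kinases and factors that feed into AP-1 (the MAP kinases, their upstream kinases, and the factors that act at the Fos promoter), 2 rose and 3 fell, with a median of -0.10, or -0.03 without replicate 4. The 17.9% called is close to the 18.4% of all genes, and the split moved with the tool, since DESeq2 called 4 higher and 3 lower and limma on log2(TPM + 1) called 2 higher and 7 lower. Over all 19963 genes DESeq2 called 2365 higher and 2468 lower, and limma 5.99% higher and 17.3% lower. Map2k3, the kinase that activates p38, rose from 7441 ± 1837 to 23178 ± 5007 scaled counts (log2 fold change 1.65 ± 0.25, SE, adjusted p = 0.00192). Elk4, a cofactor of serum response factor, rose by 1.44 (adjusted p = 0.00349), whereas its relative Elk3, which can repress, fell by 1.33 (adjusted p = 0.0103). Rps6ka1, which encodes the kinase RSK1, fell by 2.37 from a low level (adjusted p = 0.0377), and Mapk11, which encodes p38 beta, fell by 0.85 (adjusted p = 0.0357). The Mapk11 call was lost without replicate 1, 2 or 3 (adjusted p = 0.0614, 0.108 and 0.165). Rps6ka1 lost its call without replicate 1 (adjusted p = 0.135) and without replicate 3 (adjusted p = 0.14), and Elk3 without replicate 3 (adjusted p = 0.065). Without replicate 4 both rises were called and none of the falls was (5 of the 28 were lower at an unadjusted p of at most 0.05, where 14.5% of all genes were), although the values stayed at -1.17 for Elk3, -2.33 for Rps6ka1 and -0.94 for Mapk11. Of 12 genes that act on the turnover of AP-1 proteins and messages, in either direction, 1 rose and 1 fell, with a median of -0.53. This 16.7% called is below the 18.4% of all genes. Zfp36, whose product tristetraprolin speeds the decay of messages such as that of Fos, rose from 2888 ± 1138 to 11696 ± 5264 scaled counts (log2 fold change 1.98 ± 0.20, SE, adjusted p = 0.000335). Its relative Zfp36l1 fell by 0.95 (adjusted p = 0.0108), a call that was lost without replicate 4, where the value was -0.89 with an adjusted p of 0.0511 (2 of the 12 were then lower at an unadjusted p of at most 0.05, beside the same 14.5% of all genes).

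Among 16 other immediate early genes, 7 rose and 2 fell (56.2% called, beside 18.4% of all genes), with a median of 0.73. DESeq2 called 7 higher and 2 lower, where 2365 and 2468 of all 19963 genes were. By limma on log2(TPM + 1), 5 were higher and 4 lower, where 5.99% and 17.3% of all genes were. Nr4a1, an orphan nuclear receptor gene, had 362, 312, 557 and 969 scaled counts in control and 2529.6, 1829, 6483 and 12682 in OGTi. The groups were well apart, at a log2 fold change of 3.15 ± 0.26 (SE, adjusted p = 0.000201). Arc, known as a synaptic immediate early gene, rose by 2.91 (adjusted p = 0.000258), the zinc finger gene Egr1 by 2.34 (adjusted p = 0.00734) and Nr4a2 by 1.50 (adjusted p = 0.0465). Klf10, known as an early target of TGF-beta, fell by 2.02 (adjusted p = 0.00424) and Egr2 by 1.01 (adjusted p = 0.0201). Dusp1, a MAP kinase phosphatase gene chosen for mention after its values were seen, was like Jun in that control replicate 4 had 568 scaled counts against 17100.4 to 18458 in the other controls. It was not called with all pairs (adjusted p = 0.127) and was called higher without replicate 4. The list then held 6 genes called higher and 1 lower, and Nr4a2 (0.98, adjusted p = 0.172), Egr2 (-0.88, adjusted p = 0.0964) and Klf6 (named after its values were seen) were no longer called.

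Among 28 genes known from the literature of other cells as AP-1 targets, 6 rose, 3 fell and 19 did not pass the test (32.1% called, beside 18.4% of all genes), with a median of 0.36. Areg, which encodes the growth factor amphiregulin, rose from 11.6 ± 6.29 to 144 ± 87.4 scaled counts (log2 fold change 3.45 ± 0.55, SE, adjusted p = 0.00260). The antioxidant genes Hmox1 and Nqo1, which are NRF2 targets too, rose by 2.68 (adjusted p = 0.000277) and 2.27 (adjusted p = 0.000220), and Plaur, the urokinase receptor gene, rose by 1.33 (adjusted p = 0.00337). Il6, the interleukin gene, fell by 2.27 (adjusted p = 0.000427), the cyclin gene Ccnd1 by 2.22 (adjusted p = 0.00218) and the chromatin gene Hmga2 by 1.41 (adjusted p = 0.0303). Matrix metalloproteinase genes, the textbook targets, were not among the calls of the edgeR test. Of these, 3 were chosen for mention after their values were seen. Mmp12, the macrophage elastase gene, had a log2 fold change of 1.14 (adjusted p = 0.0517) and was called higher in 7 of 15 alternatives, DESeq2 among them (adjusted p = 0.00806). Without the replicate block its adjusted p was 0.704. Its level differed widely between replicates, with 7.34, 9.67, 1295 and 388 scaled counts in control and 6.14, 58.1, 2709 and 698 in OGTi. Mmp13, the collagenase gene, had -0.85 (adjusted p = 0.0990) and was called lower in 3 of 15. Mmp3, the stromelysin gene, averaged 54119.6 ± 30191 scaled counts (SD, n = 4) in control against 34313 ± 8568 with OGTi, which is a log2 difference of -0.49 ± 0.33 (SE, adjusted p = 0.349), and this went to -0.04 without replicate 4 and -0.79 without replicate 2. Without replicate 4, 6 genes of the list were called higher and 2 lower. Of 16 symbols of epidermal genes with known AP-1 sites in their promoters, 15 were in the table and 8 were tested. The symbol not found is another name of a gene that was. Among the 8, 2 fell (25.0% called, beside 18.4% of all genes) while 0 rose, also without adjustment of p and by DESeq2 and limma. Ivl, the involucrin gene, fell from 8829 ± 1410.5 to 2929.6 ± 1684 scaled counts (log2 fold change -1.74 ± 0.27, SE, adjusted p = 0.00217), and Sprr1a, a cornified envelope gene, fell by 1.10 (adjusted p = 0.00260). Both were called without replicate 4 too. The median of the list was -0.36 over the 8 genes, and -0.98 over the 7 tested without replicate 4.

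**Figure D5:**
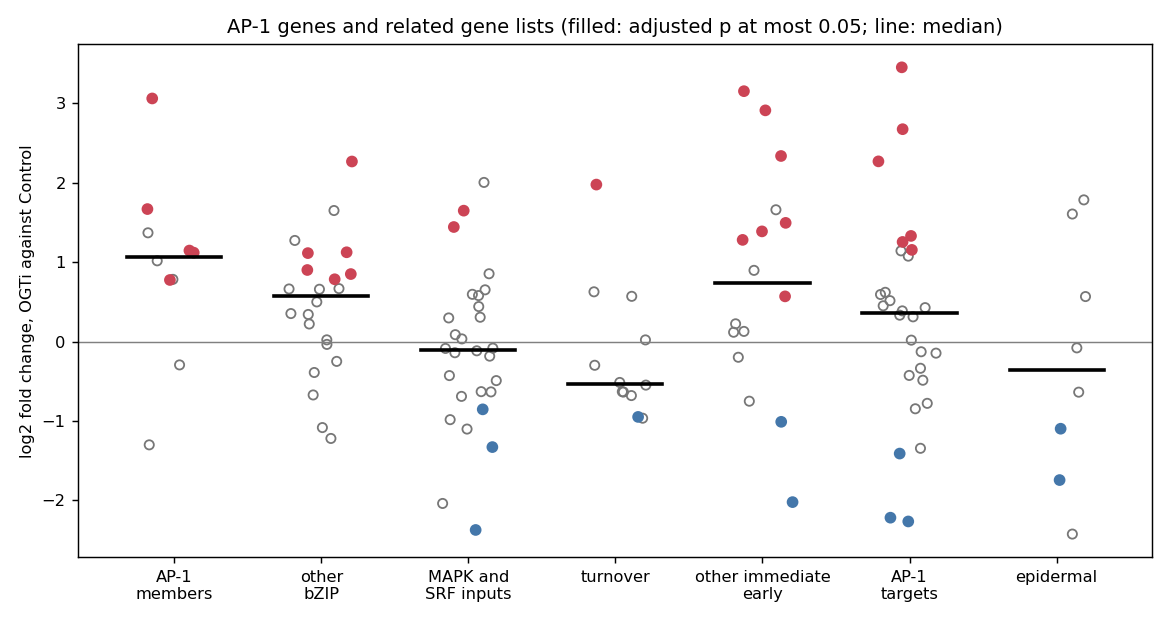
Log2 fold change in OGTi against control of the 10 AP-1 genes and of the tested genes of 6 related lists, where filled points passed the test (red higher, blue lower), open points did not, and the black line is the median of the list. The medians range from -0.53 for the turnover genes to 1.07 for the AP-1 members, beside 0.01 for all genes tested.

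The genes whose pattern over the 8 libraries came nearest to a called member were sought by the root mean square difference of log2 CPM, each gene centred on its own mean, among 11052 genes compared. For Fos these were Tmem251 at a difference of 0.126 and Gdf9 at 0.175, for Fosl1 Fam71f2 at 0.112 and Ccdc85b at 0.131, and for Junb Eea1 at 0.116 and Snx9 at 0.146. For Maff they were Cacfd1 at 0.146 and Arl8b at 0.217. Atf3 had the most distant neighbours, the small heat shock gene Cryab at 0.326 and the stress-induced gene Ndrg1 at 0.362. Ccdc85b is the gene that overlaps Fosl1 on the opposite strand.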

How the data were processed

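RNA was sequenced from 4 control and 4 OGTi cultures of pMF-HSCs as stranded, paired-end libraries of polyadenylated RNA. Per the study's methods and the submitters' processing notes, the authors aligned reads to the mouse genome (mm39, GRCm39) with Bowtie2 2.3.5.1, counted them by strand with RSEM 1.3.1 and tested them with DESeq2 1.36.0. For each library the deposited table holds expected counts, which the authors estimated per gene and left unnormalized, and TPM, which the authors scaled by gene length and depth. Of the genes detected in a library, 0.251% to 0.978% had a fractional count. A deposited comparison table with fold changes, p-values and 16 columns of per-sample values was not used.

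Expected counts were rounded to whole numbers. Genes with a total of at least 10 counts were scaled by TMM and tested with edgeR 4.0.16 (R 4.3.3) by glmQLFit and glmQLFTest, blocked by replicate number, with Benjamini-Hochberg adjustment over the whole set of tested genes and a threshold of 0.05. Standard errors were derived from the log2 fold change and the root of F. The biological coefficient of variation was 0.342, so that the spread between cultures rather than depth set the precision for most genes. Pairing by replicate number follows the study's own design. In a check on deviations from group means, same-numbered libraries correlated across genes at 0.187, 0.276, 0.210 and 0.445, and other pairs of libraries of different groups at -0.511 to 0.284. No libraries held identical values. The test was run before use on simulated counts with less spread between cultures than these data have, so its error rate here was not measured.

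The text names the 10 members, Ogt, up to 4 called genes with the largest rise and up to 4 with the largest fall of each list, the 2 nearest genes of each called member (mean log2 CPM of at least 1) and leading cell type markers. Genes named outside this rule are marked. The members and lists were chosen with earlier results of these data known. Alternatives were the fit without the block, DESeq2 1.42.0, limma 3.58.1 on log2(TPM + 1) and log2(TPM + 0.1), other scalings and filters, trends of gene length and GC content removed, and each replicate left out. Sequences and motifs came from RefSeq promoters, and gene positions and the GC content of transcript starts from GENCODE on GRCm39. No protein sequences were used here.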

Additional observations from a re-analysis of the deposited data

Results flagged for a closer look

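In 2 of the 20 groups of 4 values of the AP-1 genes, and in 5 of 84 groups over all genes examined, a single library lay far from the other 3 by Dixon's criterion for 4 samples at the 95% level. Chance flags about 1 in 20 groups, and 10 of the 84 are of genes named after their values were seen, Dusp1 among them. Fosb in OGTi replicate 4 had 808.6 scaled counts, against 102 to 209 in the other OGTi libraries. Jund in control replicate 4 had 20.2 scaled counts, against 60.7 to 66.0 in the other control libraries. Mafk, the small MAF gene, had 6297 scaled counts in control replicate 4, against 4326 to 4501 in the other controls. Arc, the immediate early gene, had 2601 scaled counts in that library, against 714 to 1030.4 in the others. Dusp1, the phosphatase gene, had 568 scaled counts there, against 17100.4 to 18458 in the others. All 5 values come from replicate 4, and its control library was low for Jund and Dusp1 and high for Mafk and Arc. Which members stood out depended on the scale, since on log2 values Jun in control replicate 4 met the criterion and Fosb in OGTi replicate 4 did not.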

How the results depend on the processing

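Fos and Atf3 kept their direction and call in 15 alternatives, at 1.32 to 1.84 and 2.69 to 3.41 on the log2 scale, and no member changed direction in any. The count of called members went from 5 to 3 without the replicate block (no pairing) and with library totals alone, where 2991 and 4167 of all genes were called in place of 3666, and was 3 to 6 with a replicate left out (3 without replicate 3 and without replicate 4). Without the block, Fosl1 (1.01) and Junb (0.83) lost their calls. With library totals alone, Junb (0.58) and Maff (0.95) did. On log2(TPM + 1) and log2(TPM + 0.1), Junb (0.45 in both) and Maff (0.77 and 0.83) lost theirs, Batf3 was called lower (-0.58 and -1.38), and 3456 and 3473 genes were lower in place of 2043. Fosb was called higher by DESeq2 (1.06), with upper-quartile scaling (1.14), without a low-count filter (1.01) and with the length (1.23) or GC trend (1.28) removed, and without replicate 1 (1.40), and Jun by DESeq2 (1.41) and without the filter (1.37). Leaving out a replicate gave 0.70 to 1.40 for Fosb, 0.58 to 0.93 for Junb and 0.75 to 1.33 for Maff, with 1905 to 3124 genes called in all, 843 to 1433 higher and 1062 to 1744 lower, where all pairs gave 3666, 1623 and 2043. The cause of these changes was not tested. Scaling moved the median of all genes from 0.01 to 0.13 (upper quartile) or -0.19 (library totals), and removing the length or GC trend gave 2100 higher and 1944 lower or 1979 and 1726. Of 480 values of 32 named genes outside the family, 428 kept their call or lack of one, 39 lost a call, 13 gained one and none reversed a call. Ogt, which was never called, changed sign in 3 of 15 alternatives. Batf3 could not be fitted with edgeR's own expression filter, which removed it. Batf3 had the lowest counts, at which counting error is largest.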
